A study of Mus musculus with 9 samples.

Results

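In cultured mouse gut epithelium, 3513 stretches of DNA inside introns carried more of the histone mark H3K27me3 in the stem cell culture than in the M cell culture. They were taken by a fixed rule from the authors' table of regions higher in the stem cell culture: chromosomes 1 to 19, annotated to an intron, and more than 5000 bp from the nearest transcription start site (TSS). They are 3513 of the 13607 regions in that table, and of 49405 differential regions in both directions together. The regions were chosen by their measured H3K27me3 tags in WENRC against RANKL, so the values of the mark below are a description and carry no test.

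The cultures were organoids (mini-guts) grown from mouse duodenum, and each is called here by the name in its label, since the labels do not spell the names out. RANKL is labelled as the intestinal M cell and WENRC as the intestinal stem cell. ENRI, the remaining culture, is labelled as enterocyte. H3K27me3 was measured by ChIP-seq (sequencing of DNA bound to the marked histone) in RANKL with 2 libraries, pooled by the authors, and in WENRC with 1 library, so the mark has no replicate check. GRO-seq, which reads nascent transcription, was done with 2 libraries for each of the 3 cultures. In this method engaged RNA polymerases run on in isolated nuclei and the new RNA is sequenced. The ENRI and WENRC libraries carry a mouse number, while those of RANKL carry a replicate number alone. The labels give no strain, age, dose or time, and nothing shows that the RANKL libraries came from separate cultures or animals, so p-values measure the spread between these libraries only.

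H3K27me3 is written by the Polycomb repressive complex PRC2 and is read as a mark of genes held silent, most often over CpG-rich start sites. Away from start sites it can cover whole silent genes at a low level, including their introns. M cells are the antigen-sampling cells of the epithelium over gut lymphoid tissue, and they differentiate from intestinal stem cells after RANKL, a ligand of the TNF family, activates NF-kB signalling.

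The pooled RANKL ChIP-seq held 32.7 M tags and the WENRC library 36.3 M, and WENRC tags are therefore given as scaled down by the authors, by a factor of 0.9. The GRO-seq depth is unknown, since the table holds log2 values only. Of 20 M cell genes tested, 15 were higher in RANKL than in WENRC and none was lower, while of 28 stem and Wnt genes 5 were higher and 2 were lower. Other epithelial lists rose in part as well, with 7 of 20 enterocyte genes, 3 of 7 goblet, 4 of 6 Paneth, 1 of 5 enteroendocrine and 1 of 5 tuft cell genes higher, and 1 enterocyte gene lower. None of the 5 fibroblast markers (Col1a1, Col1a2, Pdgfra, Dcn, Lum) reached the level needed for testing, and of 3 immune, 1 endothelial and 3 neural markers tested none was called. The file header names the RANKL reads as combined from a repeat sequencing, apart from the other libraries, so that sequencing run and RANKL culture cannot be told apart.

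Sequences of the regions themselves are not used here. Promoters of 2 host genes are shown instead, because each of these genes had WENRC-higher H3K27me3 both in a distal intron and within 5000 bp of its start site, and each was more transcribed in RANKL. They are the RefSeq GRCm38.p6 windows from 250 bases before to 50 after the gene's 5′-most start, written 5′ to 3′ on the gene's strand, with every CG dinucleotide in capitals. Slc6a20a is at chr9:123678783-123679082 on the minus strand and Bmp6 at chr13:38345466-38345765 on the plus strand.
Slc6a20a: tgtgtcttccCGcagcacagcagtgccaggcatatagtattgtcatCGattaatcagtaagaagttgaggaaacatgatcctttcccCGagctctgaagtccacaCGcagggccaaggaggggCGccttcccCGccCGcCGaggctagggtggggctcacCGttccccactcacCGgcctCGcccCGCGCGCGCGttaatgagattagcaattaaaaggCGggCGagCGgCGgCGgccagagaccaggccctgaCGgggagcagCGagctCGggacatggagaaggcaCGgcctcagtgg
Bmp6: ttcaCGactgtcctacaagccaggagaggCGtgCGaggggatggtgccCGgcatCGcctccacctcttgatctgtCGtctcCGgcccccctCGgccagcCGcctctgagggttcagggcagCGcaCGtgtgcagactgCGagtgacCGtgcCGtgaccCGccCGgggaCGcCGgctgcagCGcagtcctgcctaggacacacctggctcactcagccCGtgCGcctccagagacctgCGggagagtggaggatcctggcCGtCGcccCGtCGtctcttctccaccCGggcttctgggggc
The Slc6a20a window holds 25 CG and the Bmp6 window 27, counts reached by 18.4% and 15.4% of the 27025 mouse promoters in the table, counting 1 for each gene. CG reads the same on both strands, so 1 count covers both. Both promoters are thus rich in CpG, but they were picked as examples and do not stand for the hosts. Among other hosts that met the same conditions, Pglyrp2 had 5 CG and Dock8 had 52. A comparison of CpG content over all host genes is void, because only 76.6% of the tested hosts had a promoter in the table.

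The member regions were small and lightly marked. A region had a median of 20.7 scaled WENRC tags, with quartiles of 18.9 and 24.3 and a range from 14.4 to 292. The same regions had a median of 6 RANKL tags, with quartiles of 5 and 8. The authors' fold, WENRC over RANKL, had a median of 3.38 and ran from 2.02 to 43.2, and it was 4 or more in 1009 regions (28.7%). In 2749 regions (78.3%) the length was exactly 500 bp, the shortest in the table, and 44 (1.25%) reached 1500 bp. The longest was 3777 bp, and all members together covered 2.02 Mb.

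**Figure D1:**
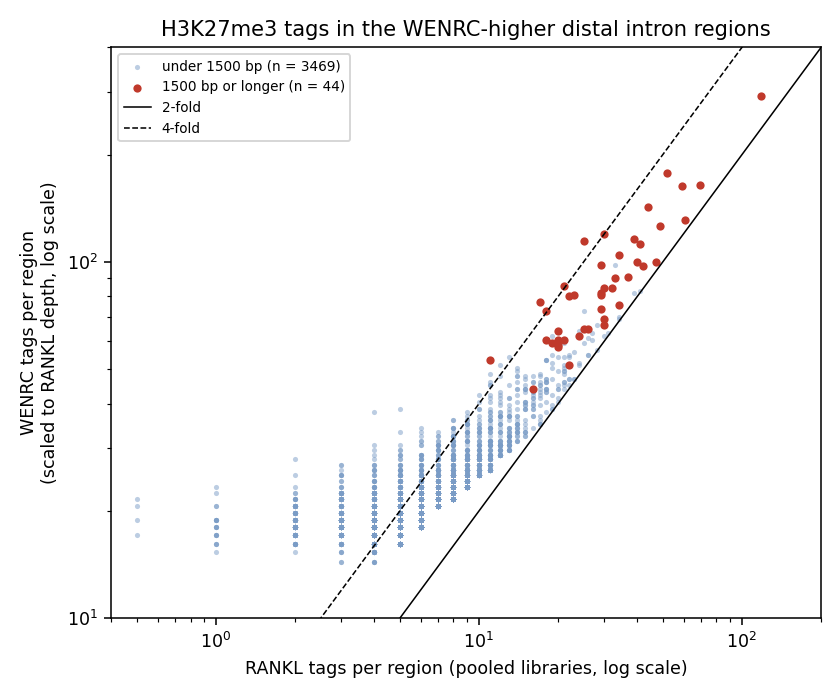
Scaled WENRC tags against RANKL tags for each of the 3513 regions, both on log scales, with lines at 2-fold and 4-fold. Most regions sit at 5 to 8 RANKL tags, while the 44 regions of 1500 bp or more (red) lie at the upper right, at 11 to 118 RANKL tags.

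The largest folds came from regions with almost no RANKL tags. Of regions above the authors' floor of 0.5 tags, the highest fold was in the third intron of Bend7, at chr2:4667734-4668377 (mm9), with 23.4 WENRC tags against 1 RANKL tag. Its fold of 23.4 has a 95% exact counting interval from 3.84 to 959. The next were in Alk, a receptor tyrosine kinase (22.5 tags against 1), in Adra1a, an adrenergic receptor, and in Duox2, an epithelial NADPH oxidase that makes hydrogen peroxide (20.7 against 1 in each). Regions in Gtf2a1l, Pak7, Nfia and the noncoding NR_152790 followed, each with 18.9 tags against 1. In 4 regions, in Gpr158, Cap2, Nsun7 and Gm13490, RANKL had none and the fold of 34.2 to 43.2 is set by the floor. All of these intervals cover counting error only and are wide, so the order among these regions is not resolved.

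The most heavily marked regions had moderate folds. Pde6a, a subunit of the rod photoreceptor phosphodiesterase, held 2 of the 5 with most WENRC tags, with 291.7 against 118 RANKL tags (fold 2.47, interval 2.0 to 3.08) and 178.2 against 52 (fold 3.43, interval 2.51 to 4.75). A region in the second intron of Itpkb, an inositol trisphosphate kinase, at chr1:182266769-182269050, had 164.7 against 69. The first intron of Slc6a20b, an amino acid transporter of the SLC6 family, had 163.8 against 59 at chr9:123528969-123532520. The fourth and last intron of Pglyrp2, an amidase that cuts bacterial peptidoglycan, had 142.2 against 44 at chr17:32551173-32554151. RANKL thus kept 44 tags or more in each of these 5.

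The regions were spread along their genes. The median distance to the nearest TSS was 40033 bp, and 924 regions (26.3%) lay in the first intron and 569 (16.2%) in the second. In 4 equal parts of the listed gene, from its start to its end, 22%, 25.9%, 26.9% and 25.2% of regions fell in each, nearly even. A repeat was the authors' detailed annotation for 953 regions (27.1%), with LINE, SINE and LTR elements at 8.06%, 7.86% and 6.83%. The threshold on distance cuts a continuous range: just inside it lay regions in Arhgef33 at 5011 bp, Postn at 5023 bp and B230112J18Rik at 5029 bp, each with folds of 2.49 to 2.7, and just outside it regions in Gli3 at 4976 bp, Fgd5 at 4978 bp and Chil4 at 4987 bp, with folds of 2.6 to 3.3.

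The same rule applied to the opposite table gave 7845 distal intron regions that were higher in RANKL, which were longer and more clustered. Of those, 8.50% reached 1500 bp, against 1.25% of the WENRC-higher regions, and 54.1% were 500 bp long, against 78.3%. A neighbour of the same kind lay within 10 kb of 69.4% of them, against 31.4%. Their median fold was 2.96. WENRC-higher regions between genes, 6820 in number, had nearly the same size and tag counts as those in introns, with a median of 20.7 tags, a median fold of 3.42 and 78.3% at 500 bp. They lay in repeats more often, at 35.7%. The 1472 WENRC-higher regions near start sites had a median fold of 3.15, and 3.40% of them reached 1500 bp. These shares describe the authors' calls, and differences between them were not tested.

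The regions fell into 1543 host genes, the gene whose intron the authors' annotation names. In 859 of these there was 1 region, while 163 hosts with 5 or more held 1257 regions (35.8%). For 52 regions no listed host was found. The host was the gene of the nearest TSS for 66.9% of the matched regions. The hosts that passed the filter on GRO-seq values, 1291 in number and holding 3137 regions, had a median length of 120 kb, against 22.9 kb for all genes tested. Per kb, their median WENRC value was -1.43 on the log2 scale, against 3.65 over all genes tested: these were long and weakly transcribed genes.

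Camta1, a calmodulin-binding transcription activator, held 33 regions, the most of any host. They summed to 814 scaled WENRC tags against 218 RANKL tags and lay from 111 to 757 kb after the listed start. Thsd4, an ADAMTS-like protein of microfibrils, held 21, and Kalrn, a guanine nucleotide exchange factor of neurons, held 20. Gadl1, an amino acid decarboxylase, held 16, and its regions lay from 6.49 to 142 kb along a gene of 167 kb. Anks1b, an ankyrin repeat protein, and Bmp6, a secreted BMP ligand, held 15 each. The calcium channel subunit genes Cacna1d and Cacna1c held 14 and 13, Ryr3, a ryanodine receptor, 14, and Rnf220, a ubiquitin ligase, 14.

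Both kinds of region often shared a gene. Of the tested hosts, 678 (52.5%) also had a RANKL-higher distal intron region, where 1670 of all 16563 genes tested had one. The 678 are 40.6% of these 1670. Hosts with both kinds had a median length of 152 kb, against 22.9 kb for all genes tested. The part of gene length in the sharing was not tested. In genes with both, 2038 WENRC-higher regions lay a median of 19.5 kb from the nearest RANKL-higher region, and 5 overlapped one. Camta1 had 19 RANKL-higher regions toward its far end and Cacna1d had 14, while Gadl1 and Bmp6 had none.

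**Figure D2:**
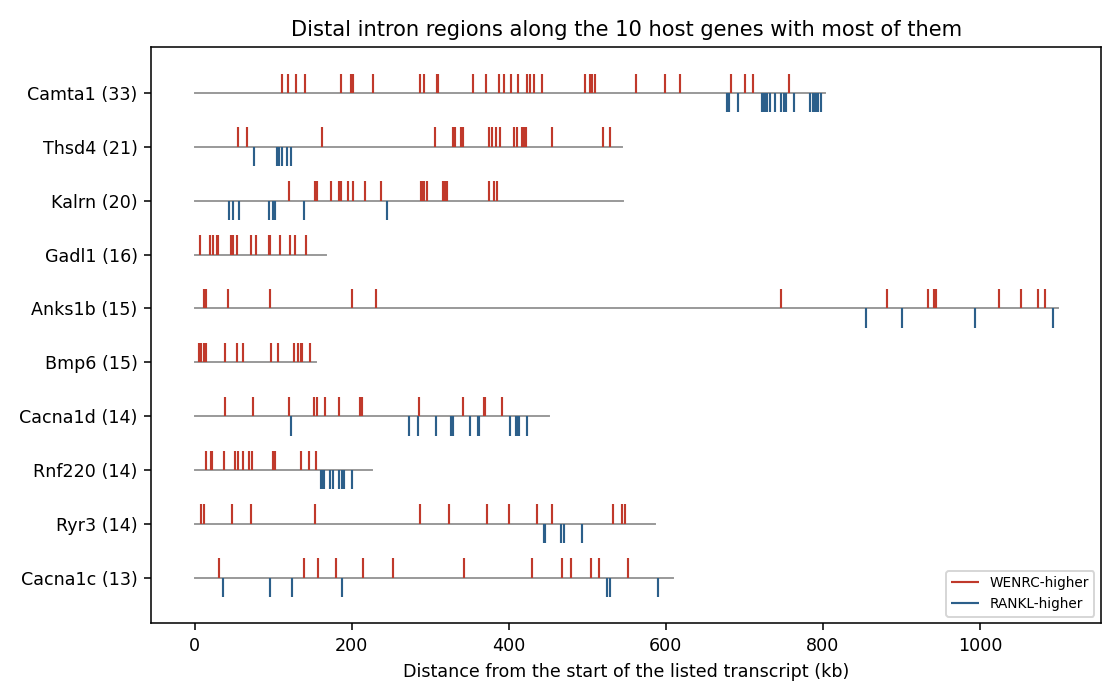
Positions of WENRC-higher (red, above each line) and RANKL-higher (blue, below) distal intron regions along the 10 hosts with most WENRC-higher regions, in kb from the listed transcript start, with the number of WENRC-higher regions in brackets. Gadl1 and Bmp6 have red marks only, and in Rnf220 and Camta1 the blue marks gather toward the far end.

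GRO-seq was not used to choose the regions and allowed a test of whether the host genes were transcribed differently. In fits that kept 2 libraries in both cultures, the share of host genes called lower in RANKL was below that of all genes. The share called higher was near that of all genes or above it, by an amount that depended on the fit. With 1 WENRC library left out, too few hosts were called lower for a comparison. By level of transcription, the smaller share lower held only in the lower classes, as given below. With limma on the log2 values of all 6 libraries, and a false discovery rate (FDR) under 0.05 over 16563 genes, 123 of 1291 hosts (9.53%) had more transcription in RANKL than in WENRC, where 8.53% of all genes tested did. Lower in RANKL were 19 hosts (1.47%), against 3.62%. In this fit the first share is near the background. Fitted on the RANKL and WENRC libraries alone, 241 hosts were higher (18.7%, all genes 18.1%) and 83 lower (6.43%, all genes 13.2%), and the authors' deposited table had 220 hosts higher (17.0%, all genes 16.7%) and 67 lower (5.19%, all genes 11.1%). With the mouse number as a block for ENRI and WENRC, which share mice by their labels, and RANKL left unpaired, 218 hosts were higher (16.9%, all genes 11.6%) and 32 lower (2.48%, all genes 6.14%). This fit takes the difference between mice out of the spread, although RANKL is paired with no mouse. Its FDRs for contrasts with RANKL can therefore be too low. With the replicate number as a block in all 3 cultures, 9.68% were higher (all genes 6.38%) and 0.852% lower (all genes 2.46%). Without WENRC 1 the shares higher were 3.10% of hosts and 1.42% of all genes, and without WENRC 2 they were 2.71% and 1.15%. Since the gap ran from under 1 to about 5 percentage points between fits, no result about the hosts as a whole is read from the share higher. The median change of the hosts was 0.16 log2, against -0.01 over all genes.

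That median depended on which WENRC library was used. RANKL 1 and RANKL 2 minus WENRC 1 gave host medians of 0.52 and 0.35 log2, but minus WENRC 2 they gave -0.05 and -0.22. Without WENRC 1 the host median was -0.14, and without WENRC 2 it was 0.44. Relative to each gene's own mean, the hosts sat at a median of -0.39 in WENRC 1 and 0.14 in WENRC 2, and at -0.26 in ENRI 1 and 0.38 in ENRI 2, so mouse 1 was the lower library in both cultures. The part of library in the host median cannot be told apart from mouse, and no direction is given for the hosts as a whole. Leaving out either RANKL library left no gene of the table called. The host median was then 0.06 log2 without RANKL 1 and 0.26 without RANKL 2, against -0.01 and -0.00 over all genes.

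**Figure D3:**
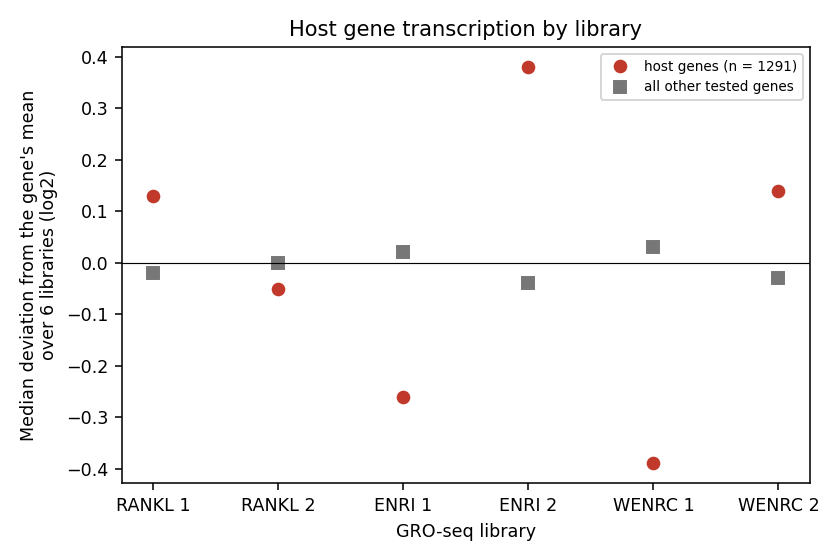
Median deviation of a gene's log2 value from its mean over the 6 GRO-seq libraries, for the 1291 hosts (red circles) and all other tested genes (grey squares). The hosts range from -0.39 in WENRC 1 to 0.38 in ENRI 2, while the other genes stay between -0.04 and 0.03.

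Short hosts stood apart from long ones in how often they were called. Among 117 hosts under 30 kb, 24 (20.5%) were higher in RANKL, against 6.96% of non-host genes of that length. Among 432 hosts of 30 to 100 kb the share was 10.9%, and 10.9% of non-hosts were called. Among 742 hosts over 100 kb it was 7.01%, against 10.9% of non-hosts. Lower in RANKL were 1.71%, 0.926% and 1.75% of hosts in the 3 length classes, against 4.03%, 2.91% and 4.74% of non-hosts, so the smaller share of falls held in each. The difference between length classes was not tested.

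WENRC-higher H3K27me3 near a host's own start site went with a larger share called. Of 247 hosts that had such a region within 5000 bp of a TSS of the gene, 46 (18.6%) were higher in RANKL and 5 were lower. That TSS can be an internal one, as in Rnf220. Of 1044 hosts without one, 77 (7.38%) were higher and 14 were lower. Genes with such a region that were not hosts gave 115 of 586 (19.6%), close to the share in hosts, and that difference was not tested. Under 30 kb, 13 of 92 hosts with no region near the TSS (14.1%) were higher. Hosts with no RANKL-higher distal intron region gave 77 of 613 (12.6%), and hosts with both kinds 46 of 678 (6.78%). By number of regions, hosts with 1, 2, 3 to 4, and 5 or more gave 9.54%, 8.12%, 8.53% and 13.2%.

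The level of transcription moved with these shares. In the lowest of 4 equal classes of genes by mean value, where 687 of the 1291 hosts lay, 3.35% of hosts and 5.01% of other genes were higher in RANKL. In the next classes hosts gave 35 of 350, 22% and 30.8%, and other genes 4.72%, 7.07% and 16.2%. The share in hosts was thus above that in other genes in each class but the lowest. Lower in RANKL were 0%, 2.29%, 4.67% and 3.85% of hosts from the lowest class up, and 2.11%, 5.51%, 4.29% and 3.17% of other genes, so hosts had the smaller share only in the lower classes. The part of level in the shares by length and position was not tested.

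Genes with the longest regions were called most often. The cut at 1500 bp was chosen after the values had been seen, so the count is a description. Of 38 hosts with a region of at least 1500 bp, 32 were tested. Of these, 17 (53.1%) were higher in RANKL, none was lower, and the median change was 1.14 log2. Hosts whose longest region was shorter gave 7.32% to 8.79%, close to the background of 8.53%. A WENRC-higher region near their own start site was present in 21 of the 32, of which 14 were higher, and absent in 11, of which 3 were higher. Their mean GRO-seq value had a median of 7.63 log2, against 5.65 for hosts with 500 bp regions only. Without WENRC 1 or without WENRC 2, 9 of the 32 (28.1%) were called, against 1.42% and 1.15% of all genes. Without RANKL 1 or RANKL 2, none was.

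**Figure D4:**
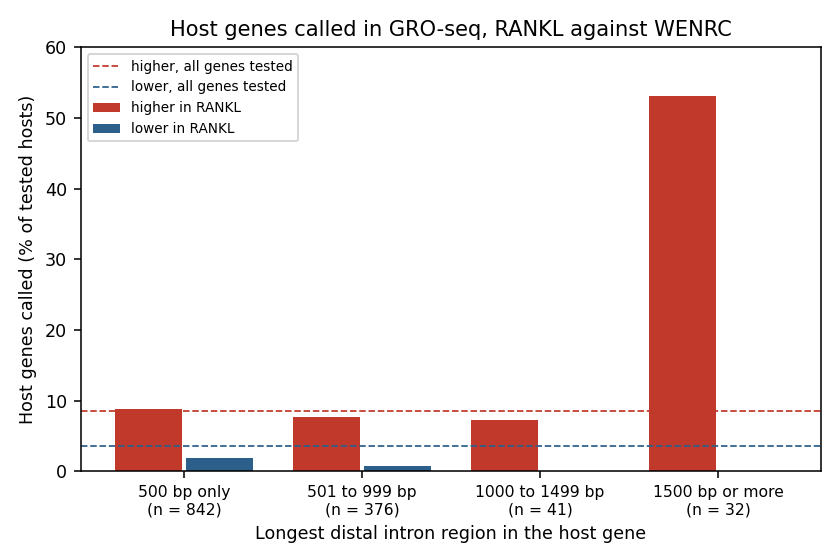
Share of tested hosts called higher (red) or lower (blue) in RANKL than in WENRC at an FDR under 0.05, by the length of the longest distal intron region in the gene, with the number of hosts below each pair of bars. Dashed lines give the shares of all genes tested, 8.53% higher and 3.62% lower, and the bar for 1500 bp or more stands at 53.1%.

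The host with the largest rise was Pglyrp2, a gene of 11.7 kb at chr17:32549406-32561112 on the minus strand of mm9. GRO-seq values were 10.64 and 10.76 log2 in RANKL against 2.60 and 3.35 in WENRC, with ENRI at 2.62 and 4.10. Both RANKL libraries were far above all others, and WENRC and ENRI, which overlapped, were at the low end of the scale. The change from WENRC was 7.72 ± 0.51 log2 (SE, limma, FDR 0.00175, n = 2 a group). Its single intron region, named above, lay 8.45 kb after the listed start, and a region 1244 bp long lay upstream of the start, at chr17:32562973-32564217, with 49.5 WENRC tags against 11.

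Adgrd1, an adhesion G protein-coupled receptor, had 6 regions, 177 WENRC tags against 54 in sum, and no RANKL-higher one. Its values were 13.19 and 13.23 in RANKL against 7.45 and 6.88 in WENRC, with ENRI at 6.92 and 7.4. RANKL again stood clear of both other cultures, which overlapped. The change from WENRC was 6.05 ± 0.25 (FDR 0.00123).

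Slc6a20a, which carries proline and other imino acids, differed from these in ENRI. Its values were 12.30 and 12.37 in RANKL against 6.42 and 6.73 in WENRC, with ENRI at 11.44 and 12.84. WENRC was low, and the RANKL values lay between the 2 ENRI values. The change from WENRC was 5.76 ± 0.43 (FDR 0.00217), and from ENRI it was 0.20 ± 0.43 (FDR 0.777). It had 6 intron regions, and the region over its start, at chr9:123583784-123589681, spanned 5897 bp with 375.4 WENRC tags against 42. The neighbouring paralog Slc6a20b had the same order at a smaller size, with values of 9.96 and 9.80 in RANKL against 8.50 and 8.20 in WENRC, with ENRI at 9.78 and 10.78, and a change of 1.53 ± 0.33 (FDR 0.0360). Its reads could in part be shared with its paralog, since the handling of reads with several matches is not given in the sources used here.

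The other 7 of the 10 largest rises had changes of 4.6 to 5.6 log2. Itih5, a heavy chain of the inter-alpha-trypsin inhibitors, had values of 10.07 and 10.19 in RANKL against 3.79 and 5.28 in WENRC. Col13a1, a transmembrane collagen, had 9.42 and 9.50 against 3.08 and 4.84. Trabd2b, a membrane protease that inactivates Wnt ligands, had 10.13 and 10.33 against 4.36 and 5.67. In each of these the WENRC libraries differed from each other by more than 1 log2, with WENRC 1 the lower, and still lay over 4 log2 below RANKL. The pseudogene Nlrp1c-ps, whose reads may be shared with its NLRP1 relatives, had 9.53 and 9.63 against 3.90 and 5.24. Ccdc33, a coiled-coil protein that overlaps the listed gene Gm16130, had 9.47 and 9.74 against 3.93 and 5.27. Csgalnact1, which starts chondroitin sulphate chains, had 11.37 and 11.42 against 6.16 and 7.33. All 3 were also higher in RANKL than in ENRI. Sh3pxd2a, a scaffold of podosomes, had 11.79 and 11.84 against 6.55 and 7.87, and carried 10 regions of up to 1710 bp besides one of 5222 bp near its start, with 285.4 WENRC tags against 81. FDR for the 10 genes ran from 0.00123 to 0.0234. All 10 lost the call without either RANKL library, with FDR of 0.0516 to 0.165 without RANKL 1 and 0.0541 to 0.189 without RANKL 2. Csgalnact1 lost it without either WENRC library, and Itih5 without WENRC 1.

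**Figure D5:**
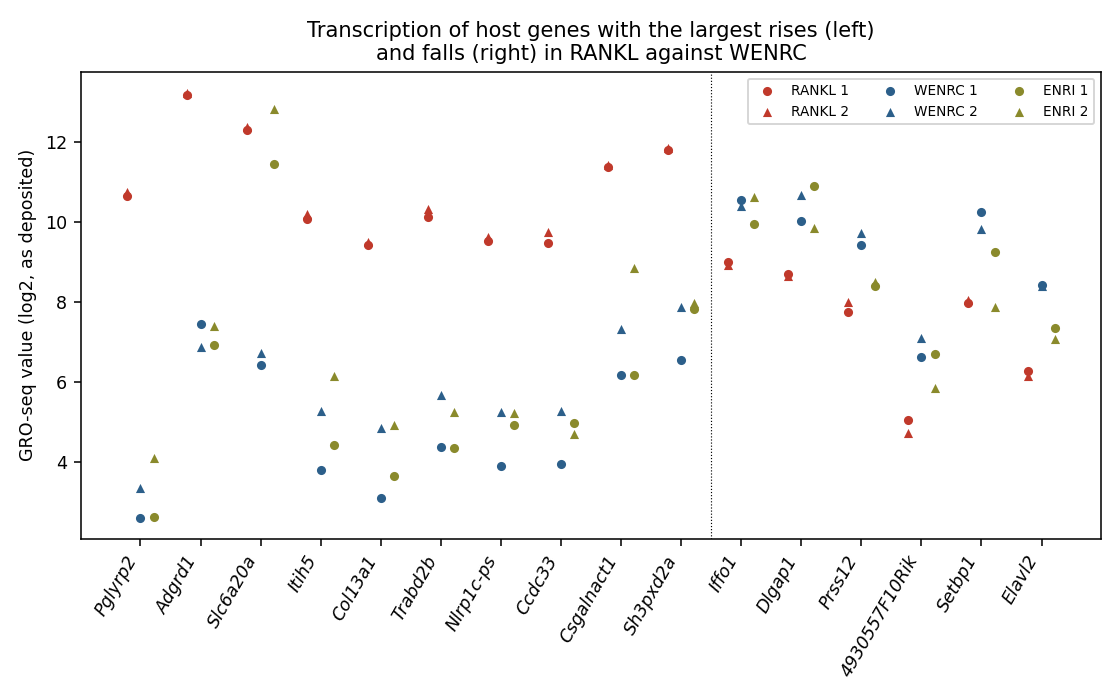
GRO-seq values (log2, as deposited) in each of the 6 libraries for the 10 hosts with the largest rises (left of the dotted line) and the 6 with the largest falls (right) in RANKL against WENRC. RANKL points lie over 3 log2 above both WENRC points at left, and only Slc6a20a has ENRI points at the RANKL level.

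Further genes with regions of 1500 bp or more were higher in RANKL. Celsr1, a cadherin of planar cell polarity with 13 regions, had 10.95 and 11.06 in RANKL against 8.32 and 8.33 in WENRC (change 2.68 ± 0.13, FDR 0.00123). Cd247, the zeta chain of the T cell receptor complex, also with 13 regions, had 10.31 and 10.25 against 7.88 and 7.74 (change 2.47 ± 0.15, FDR 0.00144). The listed gene Pou2f1 overlaps Cd247 and strand handling is not given, so which of the 2 genes the values belong to is uncertain. Zbtb7c, a zinc finger protein with 10 regions, rose by 3.64 ± 0.29, and Trim71, an RNA-binding ubiquitin ligase with 7, by 2.55 ± 0.35. Zbtb7c also had 10 RANKL-higher distal intron regions, and the listed gene 2900057B20Rik overlaps it. Trim71 was not called without WENRC 1 (FDR 0.0744) or without WENRC 2 (0.0551). Not every such gene was called. Pde6a, with the 2 most heavily marked of its 10 regions at 291.7 and 178.2 tags, had 7.51 and 7.28 in RANKL against 7.57 and 7.21 in WENRC, a change of 0.01 ± 0.24 (FDR 0.986). Itpkb gave 0.61 ± 0.15 (FDR 0.0516), and was called with the RANKL and WENRC libraries alone (FDR 0.0140). It was also called with the mouse block (FDR 0.0465), which leaves out the spread between mice. Of the 15 not called, Adam32 had the lowest change, -0.40 ± 0.21 (FDR 0.284). These further genes were named after their values were seen, apart from Celsr1, Pde6a and Itpkb.

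Of the 19 hosts that were lower in RANKL, Elavl2, a neuronal RNA-binding protein, fell most. Its values were 6.26 and 6.15 in RANKL against 8.41 and 8.39 in WENRC, with ENRI at 7.34 and 7.06. The 3 cultures did not overlap, with WENRC highest. The change was -2.19 ± 0.18 (FDR 0.00254), so this gene had more H3K27me3 in its intron regions (37.8 tags against 10) and more transcription in the same culture. Setbp1, a DNA-binding protein, had 7.96 and 8.04 against 10.24 and 9.83, with 1 WENRC-higher and 10 RANKL-higher intron regions. Prss12, a serine protease of neurons, had 7.75 and 7.99 against 9.42 and 9.72. Dlgap1, a scaffold of the postsynaptic density, had 8.71 and 8.64 against 10.02 and 10.67. In all of these each RANKL value was below each WENRC value, which adds nothing to the calls, since the genes were picked as falls on these values. The noncoding 4930557F10Rik, which overlaps another listed gene, and Iffo1, an intermediate filament family protein, changed by -1.98 and -1.51. FDR for these 6 ran up to 0.0424. With the replicate number as a block, Dlgap1 had an FDR of 0.0627. Without WENRC 1 the calls of 4930557F10Rik, Dlgap1, Iffo1 and Setbp1 were lost, without WENRC 2 those and Prss12, and without either RANKL library all 6.

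Holding many regions did not fix a gene's direction. Of the 10 hosts with most regions, 3 were higher in RANKL. Kalrn had 12.51 and 12.58 in RANKL against 10.26 and 10.30 in WENRC, with ENRI at 11.79 and 12.60, a change from WENRC of 2.26 ± 0.27 (FDR 0.00727). Bmp6 had 9.18 and 9.16 against 7.59 and 7.62, a change of 1.57 ± 0.14 (FDR 0.00355), and ENRI at 7.25 and 7.37 was lower still. The listed genes Txndc5 and 4930579J19Rik overlap Bmp6. Rnf220 had 10.40 and 10.46 against 9.35 and 9.41, a change of 1.05 ± 0.14 (FDR 0.00872). RANKL and WENRC did not overlap in any of the 3, which adds nothing to the calls made on these values. Kalrn and Rnf220 lost the call without either WENRC library, with FDR of up to 0.0733, and all 3 lost it without either RANKL library.

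The other 7 were not called with all 6 libraries. Camta1 had 10.31 and 10.18 in RANKL against 9.84 and 9.92 in WENRC, a change of 0.37 ± 0.14 (FDR 0.140). Thsd4 had the opposite sign, with 9.08 and 8.71 against 9.85 and 10.27 (change -1.17 ± 0.50, FDR 0.187). Gadl1 changed by 0.77 ± 0.36 (FDR 0.216) and Anks1b by 0.52 ± 0.64 (FDR 0.642). The calcium-handling genes Cacna1d, Cacna1c and Ryr3 gave 0.12, -0.03 and -0.00. In Anks1b the 2 WENRC libraries, 6.82 and 8.19, spanned the RANKL values. With the RANKL and WENRC libraries alone, Camta1 (FDR 0.0398) and Gadl1 (FDR 0.00508) were called higher and Thsd4 (FDR 0.00308) lower, as they were by the adjusted p in the authors' deposited table (0.0467, 0.00386 and 1.8e-07).

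Of 20 tested M cell genes 2 (10%) were hosts, near the 7.79% of all genes tested that were hosts. Esrrg, an orphan nuclear receptor, had 3 regions in 1 intron, 203 to 227 kb after the start, with 53.1 WENRC tags against 9 in sum. Its values were 14.02 and 14.12 in RANKL against 9.48 and 10.05 in WENRC, with ENRI at 6.80 and 8.82, and none overlapped. The change was 4.31 ± 0.62 (FDR 0.0121), though a listed gene, 9330162B11Rik, overlaps it. Esrrg also had a region of 3055 bp near its start, at chr1:189432344-189435399, with 126 WENRC tags against 36. Atoh8, a bHLH transcription factor, had 1 region and values of 7.04 and 6.71 against 5.40 and 5.62 (change 1.37 ± 0.26, FDR 0.0254).

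Of the 20 NF-kB genes 14 were higher in RANKL than in WENRC, and the only host was Traf1, an adaptor of TNF receptors. It had 1 region and low values, 4.30 and 4.14 in RANKL against 3.02 and 3.32 in WENRC (change 1.06 ± 0.19, FDR 0.0211). Esrrg, Atoh8 and Traf1 each lost the call when any 1 RANKL or WENRC library was left out, with FDR of 0.0806 to 0.203, and Traf1 also under upper quartile recentring (FDR 0.0516). Of 7 tested goblet cell genes 3 were higher in RANKL than in WENRC, and 2 (28.6%, all genes 7.79%) were hosts. Both hosts, Muc2 and Fcgbp, had 1 region each and were among the 3. Muc2 also had 1 RANKL-higher distal intron region and a RANKL-higher region near its start. Muc2, the gel-forming mucin of the gut, had 10.58 and 10.37 in RANKL against 7.44 and 7.0 in WENRC, with ENRI at 10.86 and 11.00. Fcgbp, a mucus protein, had 13.22 and 13.24 against 11.49 and 10.21, with ENRI at 13.29 and 12.62, and was no longer called without WENRC 2 (FDR 0.0884). In both genes only WENRC was low. No gene of the stem and Wnt, enterocyte, PRC2, Paneth or enteroendocrine lists was a host. The tested hosts of the other lists were not called. These were Dclk1 (tuft, change 1.63), Ptprc and Itgam (immune, median 0.29), Pecam1 (endothelial, 0.57) and Rbfox3 (neural, -0.36).

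Gene families of the nervous system and of ion transport had larger shares of hosts than the 7.79% of all genes tested. This was not particular to them: collagens and laminins (48.9%) and phosphodiesterases (39.1%) had larger shares as well, while Zfp genes had 2.44%. Of 24 tested ionotropic and metabotropic glutamate receptors 14 (58.3%) were hosts, with 32 regions, and none was called. Among them Grid1, with 7 regions, had a change of 0.34 (FDR 0.877) and Grik1, with 4, one of 1.14 (FDR 0.403). Grik1 was called with the mouse block (FDR 0.0135), which leaves out the spread between mice. Its values were 6.49 and 6.39 in RANKL against 4.26 and 6.34 in WENRC, and without WENRC 1 its change was 0.10. Of 19 tested calcium channel genes 13 (68.4%) were hosts and 1, Cacna1a, was higher. Of 64 tested potassium channel genes 24 (37.5%) were hosts, of which Kcnip1, Kcnk10 and Kcnb2 were higher. Kcnip1 overlaps the listed gene Kcnmb1, and Kcnk10 overlaps Gm40893. Near a start site, Cacna1a and Kcnk10 had a RANKL-higher region and no WENRC-higher one, Kcnip1 had both kinds and Kcnb2 neither. Kcnip1, a regulator of A-type channels with 4 regions, changed by 1.33 (FDR 0.0426), and Kcnd3 with 6 by -0.03. Kcnb2, a delayed rectifier with 3 regions, had the largest change of the 3, 4.56 ± 0.57 (FDR 0.00805). In these 3 families together 4 of 51 hosts (7.84%) were higher, near the 8.53% of all genes. The part of gene length in the shares of hosts was not tested. Host medians were 0.35, 0.17 and 0.20 log2 in the glutamate receptor, calcium and potassium channel families, against 0.16 over all hosts. Cacna1a, Kcnip1, Kcnk10 and Kcnb2 all lost the call without either WENRC library. Cacna1a and Kcnip1 also lost it under quantile normalization (FDR 0.0999 and 0.0629) and upper quartile recentring (0.0718 and 0.0739), and Kcnk10 with the replicate number as a block (0.0585).

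In structural and signalling families the share of hosts called higher varied around the 8.53% of all genes, on small counts and with no test of the difference. Of 45 tested collagens and laminins 22 were hosts and 1 (4.55%), Col13a1, was higher. Of 77 tested cadherins and protocadherins 12 were hosts, and Celsr1 and Cdh23 (16.7%) were higher. Cdh23 had 1 WENRC-higher but 33 RANKL-higher distal intron regions, and the listed genes Vsir and Gm17455 overlap it. Celsr1 had no RANKL-higher one. Cdh13, with 10 regions, had a change of -1.77 that was not called with 6 libraries (FDR 0.219) but was with the RANKL and WENRC libraries alone (FDR 0.00634). Of 23 phosphodiesterases 9 were hosts, with 1 (11.1%), Pde4d, higher (1.32, FDR 0.0167) and Pde8a lower, and Pde10a with 12 regions uncalled (0.29, FDR 0.435). Pde4d had 6 WENRC-higher and 13 RANKL-higher distal intron regions, and Pde8a had 1 and 8. Of 42 tested semaphorin, plexin, netrin and Slit genes 11 were hosts, and 1 (9.09%), Sema7a, was higher. Slit3, a secreted guidance ligand with 13 regions, gave 0.60 (FDR 0.684). Of 316 tested solute carriers 39 were hosts, of which 6 (15.4%) were higher and none lower. They were Slc6a20a, Slc6a20b, Slc24a4, Slc35f1, Slc15a1, a peptide transporter, and Slc28a1, a nucleoside transporter. Slc24a4 had 4 WENRC-higher and 12 RANKL-higher distal intron regions, Slc15a1 had 3 and 2, and Slc35f1 had 1 and 1. Slc6a20a, Slc6a20b and Slc28a1 had no RANKL-higher one. Near a start site, Cdh23, Slc24a4, Slc15a1 and Slc35f1 had a RANKL-higher region and no WENRC-higher one, as did Pde8a, which was lower. Celsr1, Slc6a20a, Slc6a20b and Slc28a1 had a WENRC-higher region there and no RANKL-higher one. Slc28a1 had 9.75 and 9.81 in RANKL against 5.46 and 5.82 in WENRC, with ENRI at 9.44 and 10.72, the same order as Slc6a20a. Among 328 tested Zfp genes 8 were hosts, with Zfp982 (1.73, FDR 0.00474) and Zfp981 higher, though near-identical copies make the reads of these last 2 uncertain. Without WENRC 1 the calls of Slc6a20b, Slc15a1, Slc24a4, Slc28a1, Pde4d, Pde8a, Sema7a and Zfp981 were lost, and without WENRC 2 those and Cdh23. Pde8a and Slc6a20b were not called with the replicate number as a block (FDR 0.0740 and 0.0529). Pde4d and Pde8a were not called under quantile normalization (0.0956 and 0.0687), nor Slc6a20b under upper quartile recentring (0.0512).

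Host genes were also compared with ENRI, in contrasts that share libraries with the first and are given side by side only. RANKL against ENRI called 123 hosts higher (9.53%) and 82 lower (6.35%), where 10.4% and 10.5% of all genes were called. WENRC against ENRI called 19 hosts higher (1.47%) and 86 lower (6.66%), where 4.85% and 9.74% of all genes were called. In this fit each of these 4 shares was below its background. With the replicate number as a block, RANKL against ENRI called 9.06% of hosts higher, above the 8.11% of all genes. Lower were 6.12% (all genes 8.27%). With the mouse number as a block, RANKL against ENRI called 14.7% higher (all genes 14.8%) and 11.2% lower (all genes 13.9%). With the mouse number as a block, WENRC against ENRI called 38 hosts higher (2.94%, all genes 8.72%) and 150 lower (11.6%, all genes 12.7%). With the replicate number as a block in all 3 cultures it called 9 higher (0.697%, all genes 2.57%) and 75 lower (5.81%, all genes 6.52%). Of the 32 hosts with a region of 1500 bp or more, 15 were higher and 1 was lower in RANKL than in ENRI. None was higher and 5 were lower in WENRC than in ENRI.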

How the data were processed

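GRO-seq was measured in 6 libraries and H3K27me3 in 3, and both were analysed from the files the authors deposited. Per the submitters' processing notes, Bowtie2 2.3.4.1, HOMER and DESeq2 were used on the mm9 genome. Per the file headers, the authors summed GRO-seq reads over whole RefSeq genes with HOMER, 1 transcript per gene. The values deposited for GRO-seq are log2, made comparable between libraries by the authors, and look like a regularized logarithm (an inference from the values): low values are drawn together, which understates changes of low genes. Strand handling is not given in the sources used here, so overlapping and antisense genes are uncertain. The authors' log2 fold changes, p-values and adjusted p-values stand in the same deposited table.

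The H3K27me3 regions are HOMER peaks of 1 culture with the other as control, per the file headers, so each table holds 1 direction. RANKL tags are deposited as whole counts per region, with a floor of 0.5, and WENRC tags as a signal scaled by the authors to the RANKL depth. Dividing by 0.9 gave whole tags, within 0.1, for 99.8% of regions. The authors' fold is the ratio of tags. The deposited normalized tag counts, a signal per 10 M tags, gave the depths. The deposited HOMER peak score was not used. The deposited distance to the TSS is in bp and served the rule. The 12 blank rows were dropped. Intervals of folds are exact (Clopper-Pearson) at 95% and cover counting error only.

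A host is the gene of the transcript whose intron the annotation names, required to overlap the listed gene. Genes entered the test where 2 libraries reached log2 of 10. The planned test was limma for log2 values, and edgeR would have been used for counts. limma 3.58.1 in R 4.3.3 was fitted with a variance trend on the values as deposited, with no pseudocount, to 3 group means. The ENRI and WENRC libraries share mouse numbers in their titles, per the labels, and deviations of same-numbered libraries from their group means correlated at 0.414, so these 4 are paired. The RANKL numbers are replicate numbers (correlation -0.323 with WENRC and -0.205 with ENRI) and pair nothing. P-values are two-sided and Benjamini-Hochberg adjusted over all 16563 genes. Changes are given as log2 ± SE, with 2 libraries a group. The script was tested on simulated data. Python 3.11.15, pandas 2.3.3 and scipy 1.17.1 did the rest. Gene names were matched through RefSeq GRCm38.p6, from which no coordinates other than those of the printed promoters were used (24292 of 24505 genes matched).

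Members, lists and tests were chosen with earlier results of these data known. Named were the 8 regions with the highest fold above the floor, the 5 with most WENRC tags, the 10 hosts with most regions, the 10 largest rises and 6 largest falls among called hosts, hosts in the identity lists, and the family members with most regions. Other called members of families, and genes outside these rules, were named after their values were seen. Alternatives covered the filter, normalization, libraries, replicate block, fold, distance, overlap and host definition.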

Additional observations from a re-analysis of the deposited data

How the results depend on the processing

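Counts of hosts called in RANKL against WENRC moved with the estimate of spread. With the 4 RANKL and WENRC libraries alone they were 241 higher (18.7%, all genes 18.1%) and 83 lower (6.43%, all genes 13.2%), and the authors' deposited adjusted p gave 220 (17.0%, all genes 16.7%) and 67 (5.19%, all genes 11.1%). All 142 hosts called with 6 libraries were called with the same sign in both. Leaving out 1 library at a time gave 0 to 240 hosts higher, 0 to 83 lower and host medians of -0.14 to 0.44, with the reversal at -0.14 without WENRC 1, where all genes had a median of -0.00. With fewer RANKL or WENRC samples, fewer genes pass, and a lone library is assumed to vary like the other groups. For hosts with a region of 1500 bp or more, the range was 0 to 21 called higher. This alternative, the mouse block, that without hosts marked near their start and that outside repeats were chosen after seeing the data. With the replicate number as a block in all 3 cultures, 125 hosts were higher (9.68%, all genes 6.38%) and 11 lower (0.852%, all genes 2.46%). With the mouse number as a block for ENRI and WENRC and RANKL unpaired, 218 were higher (16.9%, all genes 11.6%) and 32 lower (2.48%, all genes 6.14%). The spread in that fit leaves out the difference between mice, so its FDRs can be too low. Narrower definitions gave smaller counts. A fold of at least 4 gave 71 higher (11.8%) and 7 lower (1.16%) of 603, and at least 2 regions 61 (9.52%) and 9 (1.40%) of 641. Hosts without RANKL-higher distal intron regions gave 77 (12.6%) and 7 (1.14%) of 613. Those without a WENRC-higher region near the TSS gave 77 (7.38%) and 14 (1.34%) of 1044. Hosts that overlap no other gene gave 93 higher (9.38%) and 12 lower (1.21%) of 991. Assigning each region to the gene of the nearest TSS gave 142 higher (10.5%) and 33 lower (2.45%) of 1347. For all of these definitions the shares of all genes were 8.53% higher and 3.62% lower. Upper quartile recentring moved the median of all genes to -0.12 and that of the hosts to 0.04. It called 107 hosts higher (8.29%, all genes 7.52%) and 27 lower (2.09%, all genes 6.59%). The split of 123 to 19 was otherwise kept within 1.5 times under the filters and quantile normalization. Among regions, a fold of at least 4 left 1009, with a median fold of 4.95 and 19.8 tags. A distance over 10000 bp gave a median fold of 3.42, and adding chromosome X a median fold of 3.30 and 21.6 tags. Depth limits single regions, since most rest on 5 to 8 RANKL tags.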
